A study of Mus musculus with 4 samples.

Results

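Axon guidance ligands and receptors were examined in bulk RNA-seq of the embryonic mouse cortex. Members were the protein-coding genes of the table whose symbol belongs to the semaphorins of classes 3 to 7, plexins, neuropilins, ephrins, Eph receptors, Slits, Robos, netrins, Unc5 receptors or Dcc, and 68 of 26433 genes met this rule. Telencephalic tissue was taken at embryonic day 15 (E15) and total RNA was sequenced on an Illumina HiSeq instrument. The cKI f/+ embryos carried 1 copy of human SERPINA3 with a Flag tag, placed behind the CAG promoter and a loxP-flanked stop cassette in the Rosa26 locus, together with Nestin-Cre, which removes the stop in Nestin-positive progenitors and all cells that descend from them. WT embryos were littermate controls. The labels give C57BL/6 as the strain of both groups, while the founders of the SERPINA3 line had been bred with B6D2F2 mice. Reads per gene were available for 2 cKI f/+ libraries, named KI2 and KI3 in the table, and 2 WT libraries, named WT1 and WT3. Nothing in the labels says whether the libraries came from separate litters, so p-values measure only the spread between these libraries.

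Growing axons and migrating neurons read guidance cues with receptors on their surface. Class 3 semaphorins are secreted and most act through a neuropilin that binds the ligand and a plexin that signals, whereas most membrane semaphorins bind plexins directly. Ephrin-A ligands are held by a lipid anchor and ephrin-B ligands span the membrane, and both bind Eph receptor tyrosine kinases on neighbouring cells. Slits are secreted and repel through Robo receptors, while netrin-1 attracts through Dcc and repels through Unc5 receptors. In the embryonic cortex these systems steer callosal and corticofugal axons, and several of them also act on progenitors, on neuronal migration and on blood vessels.

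Library totals were between 17423512 and 18119444 counts, so that 3 counts corresponded to 0.166 to 0.172 CPM (counts scaled to the library total), which covers counting error only. Markers of radial glia and projection neurons were abundant in all 4 libraries, with summed levels of 2266 to 2428 CPM and 5757 to 6280 CPM. The labelled tissue is cerebral cortex, and ventral telencephalic markers summed to 243 to 319 CPM. Dlx1 at 97.9 to 129 CPM and Lhx6 at 50.7 to 62.1 CPM were the highest of that list. Gsx2, Isl1 and Nkx2-1 reached at most 2.30, 1.84 and 1.07 CPM. Gsx2 and Isl1 had 2 reads and 1 read in KI2 against 21 to 40 reads in the other libraries. Meningeal markers summed to 22.6 and 20.8 CPM in cKI f/+ and 11.1 and 12.4 CPM in WT. Col1a1, Col1a2, Col3a1 and Dcn, 4 of the 6 tested, were higher in cKI f/+ at an unadjusted p under 0.05. Over all genes tested, 4.60% had such a p in either direction. Foxc1 and Foxd1, the other 2 tested, had lower fitted values (log2 fold change -0.49 and -0.21). Lum and Aldh1a2, 2 of the 8 listed, were at 0 in WT1. Choroid plexus markers summed to 9.92 and 64.2 CPM against 2.16 and 4.53 CPM. Ttr made up 6.54 and 52.8 CPM of the cKI f/+ sums, with 116 and 956 reads in cKI f/+ and 0 and 4 in WT. Aqp1 was also higher in each cKI f/+ library, with 30 and 65 reads against 15 and 12. The libraries of the 2 genotypes overlapped for Folr1, Otx2, Kcne2 and Kl. Both cKI f/+ libraries had at least 11882 reads on Xist and both WT libraries had 5, so sex and genotype cannot be told apart for any gene. The part of these differences in the values given here was not tested.

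No axon guidance gene was called as different between cKI f/+ and WT cortex. Of the 68 members, 64 had enough reads to be tested, and 0 of 64 passed an adjusted p under 0.05 in edgeR's quasi-likelihood test, against a background of 0.12% of the 15786 genes tested. The lowest adjusted p among members was 0.969, and DESeq2 likewise called 0. At an unadjusted p under 0.05, 12 members differed, 5 of them higher and 7 lower in cKI f/+, or 7.81% and 10.9% of the members tested. Over all genes tested these shares were 2.26% and 2.34%. Nrp2, Unc5a, Ephb3, Unc5b and Ephb2 were the 5 higher genes and Ntn4, Robo2, Plxna4, Unc5d, Epha3, Sema6d and Epha5 the 7 lower ones. Their folds lay between 0.762 and 1.29. Because the tissue was sequenced in bulk, fewer cells of a type and less RNA per cell cannot be told apart for any of them.

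The direction was evenly divided over the whole gene family. A higher fitted value in cKI f/+ was found for 33 members and a lower one for 31, and the median log2 fold change was 0.0021, beside 0.0043 for all genes tested. Both cKI f/+ libraries lay above both WT libraries for 12 members (18.8%, background 17.3%) and below them for 13 (20.3%, background 16.9%). The 95% interval of the log2 fold change stayed within 0.5 in either direction for 42 members (65.6%, background 59.9%) and within 1 for 57. The smallest p that an exact permutation test of 2 libraries against 2 allows is 0.333, so single genes could be tested only with the fit across all genes.

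**Figure D1:**
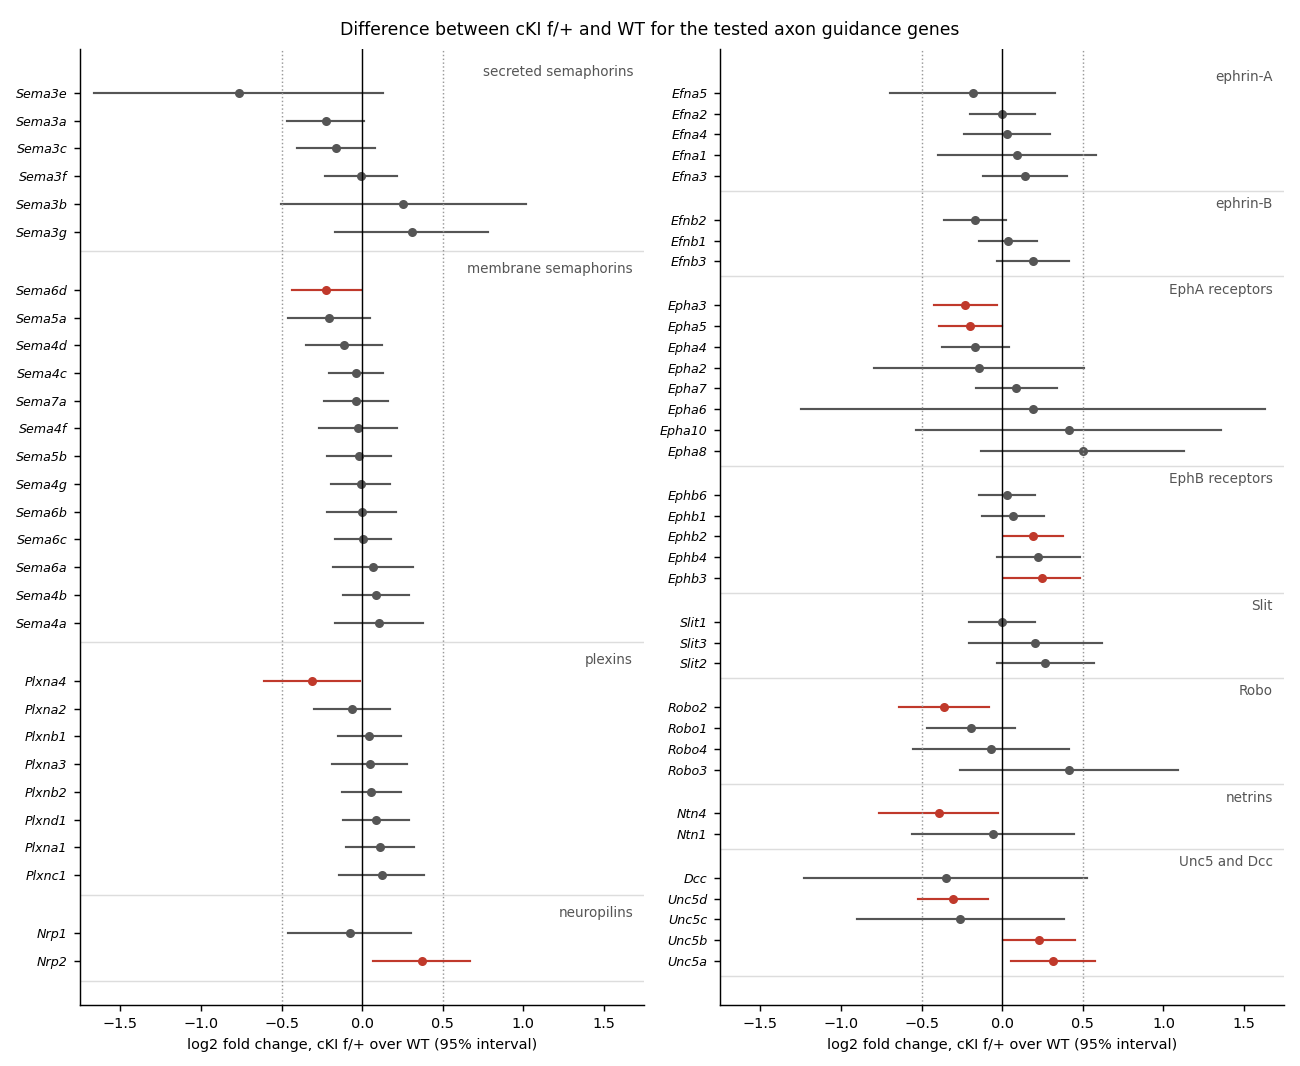
Fitted log2 fold change (cKI f/+ over WT, 2 libraries each) of the 64 tested members by family, with 95% intervals as lines and limits of 0.5 dotted. The 12 members with an unadjusted p under 0.05 are red. Most intervals cross 0, none passed the adjusted threshold, and the widest belong to Epha6, Epha10 and Sema3e, which had few reads, and to Dcc, whose WT libraries differed.

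The members covered a wide range of levels. Levels are given per kilobase of all exons of a gene merged, on which scale the highest tested member stood 1060 times above the lowest. In all 4 libraries, 20 members exceeded 100 CPM and 10 stayed under 5 CPM, and all members took 0.598% to 0.655% of the reads of a library. Efnb1, the X-linked ephrin-B1, was highest, at 112 ± 7.77 CPM per kb in cKI f/+ and 109 ± 4.86 in WT (SD, n = 2). The following members were far lower, led by Plxnb2 at 48.1 ± 0.59 and 46.4 ± 3.64 CPM per kb and Efnb2 at 44.1 ± 0.59 and 49.9 ± 4.90. Plxna3 and Efnb3 followed, with means over all libraries of 40.0 and 38.2 CPM per kb. From Plxnb2 to Efnb3 the ranges of neighbours in this order overlapped over the 4 libraries, whereas Efnb1 stood clear of all of them in every library. With the length of the longest transcript, Efnb1 was still highest at 117 CPM per kb (mean of 4 libraries), but Efnb2 at 67.2 came before Plxnb2 at 56.1. That length gave another highest gene in 3 of the 12 families and another lowest in 2.

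**Figure D2:**
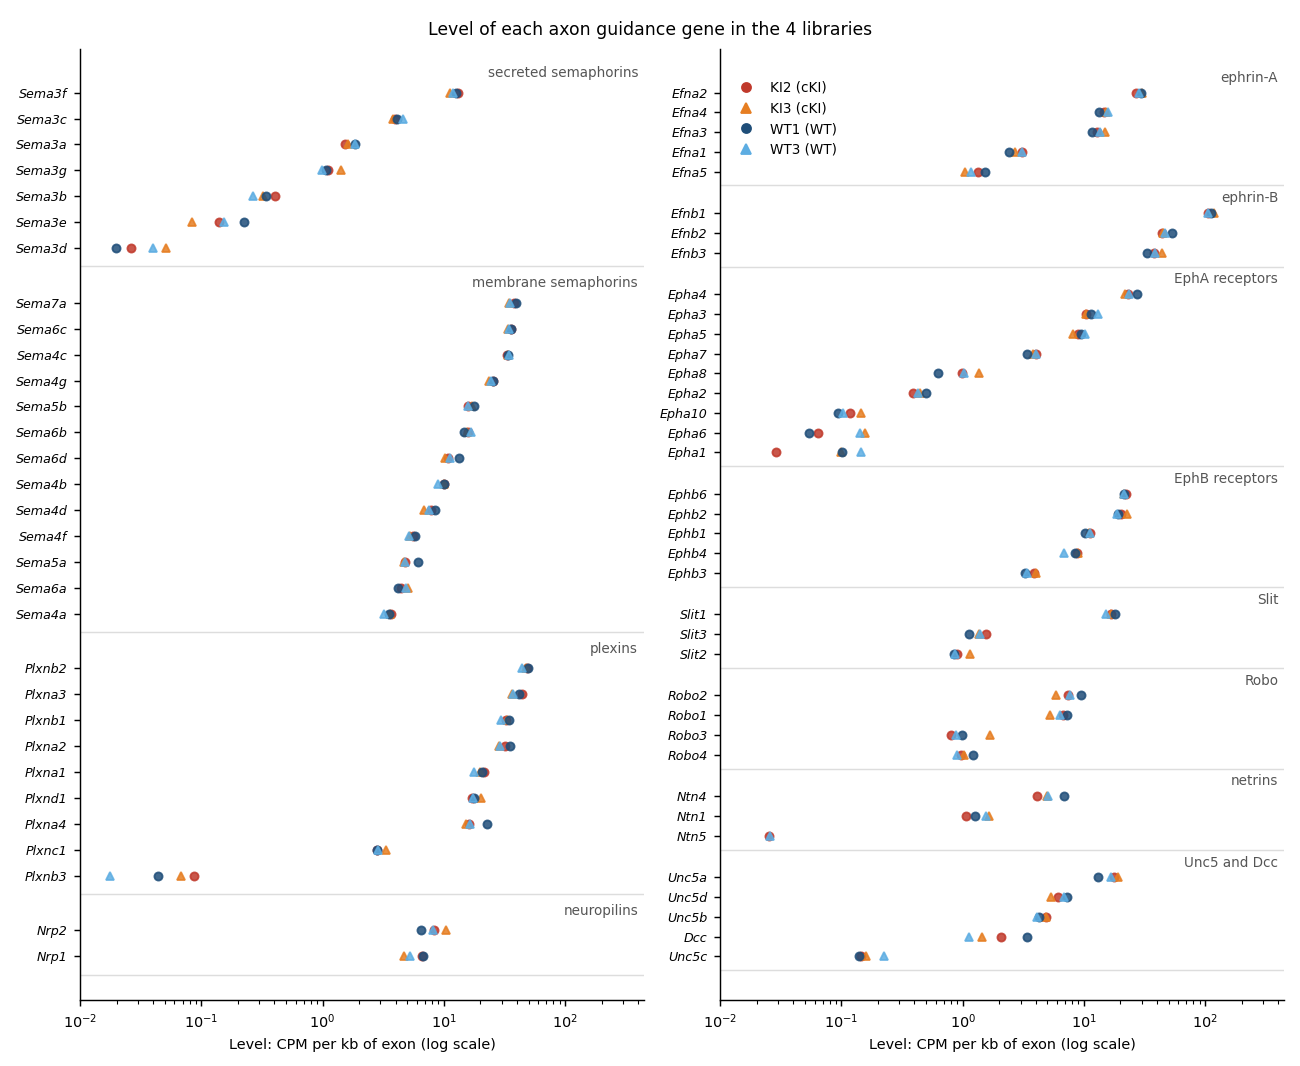
Level of each member in each library, as CPM per kb of exon on a log scale, grouped by family. Circles and triangles in red and orange are cKI f/+ and those in blue are WT, and values of 0 (Ntn5 in KI3 and WT1) are not drawn. Efnb1 is highest and Ntn5 lowest, and the libraries lie close together for most genes over a few CPM per kb.

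Ligand and receptor sides of each pathway were present in all libraries. Summed over members, semaphorins reached 222 to 239 CPM per kb and their plexin and neuropilin receptors 207 to 237. Ephrins reached 246 to 269 CPM per kb, of which 187 to 205 came from the 3 ephrin-B genes, and Eph receptors 114 to 115. The Eph receptor sum was thus nearly the same in every library, but its EphA and EphB parts lay in opposite directions. EphA receptors summed to 48.15 and 46.24 CPM per kb in cKI f/+ and 52.92 and 52.52 in WT. EphB receptors summed to 66.48 and 68.26 CPM per kb against 62.38 and 61.76. These sums were not tested. Slits summed to 17.6 to 20.0 CPM per kb and Robos to 13.9 to 18.9. Netrins were the scarcest group, with 5.18 to 8.10 CPM per kb, below the 28.2 to 30.9 of Unc5 receptors and Dcc. Per kilobase of the longest transcript the order of some sides turned, with Robos at 26.5 to 37.3 above Slits at 19.8 to 22.3, and semaphorins at 299.2 to 323 above ephrins at 272 to 296.

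Among the 7 secreted semaphorins, 6 were tested, none was called and none reached an unadjusted p under 0.05. Sema3f, a ligand for Nrp2, was the most abundant per length and supplied 60.2% to 64.7% of the group's summed level. It measured 68.2 and 58.2 CPM in cKI f/+ and 65.2 and 62.4 CPM in WT, with a log2 fold change of -0.01 (SE 0.10). Its groups overlapped. Sema3a, which repels cortical axons through Nrp1, was at 21.1 and 22.5 CPM against 25.8 and 25.5 CPM (log2 fold change -0.23, SE 0.11). These groups did not overlap, with an unadjusted p of 0.060 in edgeR's quasi-likelihood test. Sema3e, a ligand of Plxnd1 and the lowest tested gene of the group, had the lowest fitted log2 fold change of all members, -0.77 (SE 0.40). It rested on 23 and 14 reads in cKI f/+ and 37 and 25 in WT, and its interval ran from -1.66 to 0.13. Sema3d was not tested, with 4, 8, 3 and 6 reads in KI2, KI3, WT1 and WT3.

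All 13 membrane semaphorins were tested and none was called. Their median log2 fold change was -0.02 and the range was from -0.22 to 0.10. Sema7a, which has a lipid anchor and binds Plxnc1 and integrins, was highest per kilobase of exon at 123.9 and 114 CPM in cKI f/+ and 129.9 and 116 CPM in WT, although Sema4g was highest per kilobase of the longest transcript. Its groups overlapped and the log2 fold change was -0.04 (SE 0.09). Sema4a was lowest per length, with 19.7 and 19.3 CPM against 19.2 and 17.2 CPM, a log2 fold change of 0.10 (SE 0.12). The 1 member with an unadjusted p under 0.05 was Sema6d, a transmembrane ligand of plexin-A receptors. It was at 113 and 109 CPM in cKI f/+ and 141 and 119 CPM in WT, all cKI f/+ values being lower. The log2 fold change was -0.22 (SE 0.10, unadjusted p = 0.042, adjusted p = 0.969 in edgeR's quasi-likelihood test), and without WT1 it was -0.09.

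Plexins transduce semaphorin signals through an intracellular domain that acts on small GTPases. Of 9 plexins, 8 were tested and their log2 fold changes lay between -0.31 and 0.12. Plxnb2, a receptor for Sema4c on neural progenitors, was highest per length, at 374 and 368 CPM in cKI f/+ and 378 and 338 CPM in WT. Its groups overlapped, with a log2 fold change of 0.06 (SE 0.08) and an interval from -0.12 to 0.24. Plxnc1, the Sema7a receptor, was lowest per length among those tested at 23.6 and 27.8 CPM against 23.4 and 24.1 CPM. Plxna4, which pairs with Nrp1 to receive Sema3a, was the 1 plexin at an unadjusted p under 0.05. It measured 226 and 216 CPM in cKI f/+ and 320.1 and 231 CPM in WT, so the groups were separated by a small gap and WT1 stood well above the other 3 libraries. The log2 fold change of -0.31 (SE 0.13, unadjusted p = 0.041) became -0.06 without WT1. Without WT3 it was -0.53 and called, with an adjusted p of 0.00683 in edgeR's quasi-likelihood test.

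The pair of neuropilins did not share a direction. Nrp2, the co-receptor for Sema3f, was at 97.9 and 124 CPM in cKI f/+ and 76.1 and 96.5 CPM in WT. The lower cKI f/+ value exceeded the higher WT value only slightly. The log2 fold change was 0.37 (SE 0.13, fold 1.29, unadjusted p = 0.021, adjusted p = 0.969 in edgeR's quasi-likelihood test), the highest among the 12 members, and it ranged from 0.19 to 0.55 over the fits with 1 library left out. Nrp1, the co-receptor for Sema3a and for vascular endothelial growth factor, was at 64.6 and 45.5 CPM against 65.7 and 51.0 CPM. Its groups overlapped almost fully, with a log2 fold change of -0.08 (SE 0.17). Per kilobase of merged exons, Nrp2 supplied 55.6% and 69.3% of the neuropilin level in cKI f/+ and 48.9% and 61.0% in WT, ranges that overlapped. Per kilobase of the longest transcript these shares were 45.1% and 59.7% against 38.6% and 50.7%, so which neuropilin was higher depended on the length used.

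Ephrins gave no call and no unadjusted p under 0.05 among 8 tested genes. Within ephrin-A, Efna2 was highest per length, at 57.7 and 64.6 CPM in cKI f/+ and 62.6 and 60.3 CPM in WT, and Efna5, a repellent in topographic mapping, was lowest, at 5.36 and 4.25 CPM against 6.19 and 4.76 CPM. Both sets overlapped between genotypes. Within ephrin-B, Efnb1 measured 366 and 404 CPM in cKI f/+ and 389 and 365 CPM in WT, a log2 fold change of 0.04 (SE 0.08) with an interval from -0.14 to 0.22. Efnb2, which also marks arterial endothelium, was at 299.7 and 305 CPM against 366 and 318 CPM (log2 fold change -0.17, SE 0.09). Its groups did not overlap and the unadjusted p was 0.074 in edgeR's quasi-likelihood test. Efnb3, the lowest ephrin-B per length, was at 119.7 and 139 CPM against 106 and 122 CPM, with a log2 fold change of 0.19 (SE 0.10) and groups that overlapped.

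EphA receptors included a pair of genes with small lower values. Of 9 genes, 8 were tested, with a median log2 fold change of -0.03. Epha3, a receptor for ephrin-A ligands in axon mapping, was at 90.4 and 90.0 CPM in cKI f/+ and 99.4 and 113 CPM in WT. Epha5, another ephrin-A receptor, was at 151 and 137 CPM against 159 and 172 CPM. In both genes each cKI f/+ library was below each WT library. The log2 fold changes were -0.23 (SE 0.09, unadjusted p = 0.025) for Epha3 and -0.20 (SE 0.09, unadjusted p = 0.046) for Epha5 in edgeR's quasi-likelihood test. With the trend of all genes on GC content removed they were -0.15 and -0.098, and neither kept an unadjusted p under 0.05. Epha4, which binds ephrins of both classes, was the most abundant EphA receptor per length at 186 and 175 CPM against 219.5 and 188 CPM, a log2 fold change of -0.17 (SE 0.09) with groups that did not overlap.

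Epha7 was nearly level, at 39.9 and 37.5 CPM against 33.4 and 39.7 CPM, and Epha8, Epha10, Epha6, Epha2 and Epha1 were scarce. Epha8 had the highest fitted log2 fold change of all members, 0.50 (SE 0.28), from 82 and 116 reads in cKI f/+ and 52 and 85 in WT. Its groups overlapped, and the value was 0.18 without WT1 and 0.91 without WT3. Epha10, which lacks kinase activity, had a log2 fold change of 0.41 (SE 0.42) at 0.85 and 1.05 CPM against 0.68 and 0.75 CPM. Epha6, the lowest tested EphA receptor, was at 0.34 and 0.83 CPM against 0.28 and 0.75 CPM, and its interval from -1.25 to 1.63 was too wide to show a difference of either sign. Epha1 was not tested, with 2 and 7 reads in cKI f/+ and 7 and 10 in WT, and 236 bases of its exons overlap Zyx on the opposite strand.

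EphB receptors were tested in full and none was called. All 5 had a positive fitted value, beside 8082 of the 15786 genes tested. The median log2 fold change was 0.19 and the range was from 0.03 to 0.25. In 4 of 5 both cKI f/+ libraries lay above both WT libraries (background 17.3%). Their GC content lay between 52.7% and 59.4%. Of the 2810 genes tested with a GC content over 55% and up to 60%, 1990 had a higher fitted value. Ephb2, which with Ephb3 guides commissural axons of the forebrain, was at 256.5 and 286 CPM in cKI f/+ and 239.9 and 236 CPM in WT. Ephb3 was at 25.6 and 26.7 CPM against 21.7 and 22.6 CPM and was the lowest EphB receptor per length. Neither gene overlapped between genotypes. The log2 fold changes were 0.19 (SE 0.08, unadjusted p = 0.039) and 0.25 (SE 0.11, unadjusted p = 0.044) in edgeR's quasi-likelihood test. With the trend of all genes on GC content removed they were 0.14 and 0.19, and neither kept an unadjusted p under 0.05. Ephb4, a venous endothelial receptor for Efnb2, was at 40.7 and 41.6 CPM against 38.9 and 31.8 CPM, a log2 fold change of 0.22 (SE 0.11). Ephb6, a kinase-inactive receptor, was the highest of the group per kilobase of exon, and Ephb2 was so per kilobase of the longest transcript. Ephb6 was nearly level at 83.8 and 81.3 CPM against 81.2 and 81.0 CPM, a log2 fold change of 0.03 (SE 0.08).

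Slit ligands were dominated by Slit1, which supplied 86.9% to 90.1% of their summed level. Slit1 was at 98.4 and 98.1 CPM in cKI f/+ and 107 and 90.7 CPM in WT, with a log2 fold change of -0.0018 (SE 0.09) and overlapping groups. Slit2, the lowest per kilobase of exon (Slit3 per kilobase of the longest transcript) and a midline repellent, was at 22.7 and 29.3 CPM against 21.4 and 22.0 CPM. Its groups did not overlap, with a log2 fold change of 0.27 (SE 0.13) and an unadjusted p of 0.077 in edgeR's quasi-likelihood test.

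Among the Robo receptors, Robo2 was the most abundant per length and the 1 gene at an unadjusted p under 0.05. It was at 125 and 101 CPM in cKI f/+ and 160.4 and 131 CPM in WT. Each cKI f/+ value was lower than each WT value, although the 2 libraries of a genotype differed from each other by nearly as much. The log2 fold change was -0.36 (SE 0.12, fold 0.778, unadjusted p = 0.016, adjusted p = 0.969 in edgeR's quasi-likelihood test), and it ran from -0.21 without WT1 to -0.54 without KI2. Robo1, its close relative and also a Slit receptor, was at 110.5 and 86.2 CPM against 121 and 105 CPM, with overlapping groups and a log2 fold change of -0.19 (SE 0.12). Robo3, which lets commissural axons cross the midline, was high in KI3 alone, with 97 and 208 reads in cKI f/+ and 118 and 106 in WT. Its log2 fold change of 0.41 (SE 0.30) became -0.22 without KI3. Robo4, an endothelial receptor and the lowest of the group per length, was at 5.13 and 5.46 CPM against 6.42 and 4.76 CPM.

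Of the netrins, Ntn4, a netrin of basement membranes, was highest per length, at 15.3 and 18.4 CPM in cKI f/+ and 25.6 and 18.8 CPM in WT. KI3 and WT3 were nearly equal, so the separation of the groups rested on a narrow gap. The log2 fold change was -0.39 (SE 0.16, fold 0.762, unadjusted p = 0.039, adjusted p = 0.969 in edgeR's quasi-likelihood test), and without WT1 it was -0.16. Ntn1, the classic attractant of commissural axons, was at 6.71 and 10.3 CPM against 7.95 and 9.81 CPM, with overlapping groups and a log2 fold change of -0.06 (SE 0.22). Ntn5 was practically undetected, with 1, 0, 0 and 1 reads in KI2, KI3, WT1 and WT3.

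Fitted values of the netrin receptors lay in both directions, and 0 of the 5 tested were called. Unc5a, the highest of the group per length, was at 74.0 and 79.5 CPM in cKI f/+ and 54.4 and 69.5 CPM in WT. Unc5b, which also acts in vessels, was at 30.4 and 30.7 CPM against 26.7 and 25.7 CPM. Both genes were higher in each cKI f/+ library than in each WT library. Their log2 fold changes were 0.32 (SE 0.12, unadjusted p = 0.023) and 0.23 (SE 0.10, unadjusted p = 0.047), with an adjusted p of 0.969 for each in edgeR's quasi-likelihood test. Without WT3, Unc5a had a log2 fold change of 0.50 and was called, with an adjusted p of 0.0364, and without WT1 it had 0.15. Unc5d, a receptor of migrating upper-layer neurons that binds Flrt2, went the other way, at 55.9 and 49.2 CPM in cKI f/+ and 67.4 and 62.9 CPM in WT. Its groups were clearly separated, and it had the lowest unadjusted p of all members, 0.011, with a log2 fold change of -0.31 (SE 0.10) in edgeR's quasi-likelihood test. Unc5c was the lowest of the group per length, at 2.76 and 3.04 CPM against 2.67 and 4.31 CPM.

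Dcc, the netrin-1 receptor needed for the corpus callosum, varied more within WT than any other tested member. It had 487 and 346 reads in cKI f/+ and 787 and 260 reads in WT, so that WT1 was 2.99 times WT3 in CPM and both cKI f/+ libraries lay between them. The log2 fold change was -0.35 (SE 0.39, interval from -1.23 to 0.53, adjusted p = 0.988 in edgeR's quasi-likelihood test). Without WT1 it was 0.65, and without WT3 it was -0.93 with an adjusted p of 0.0115. Its direction was therefore set by which WT library was kept.

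**Figure D3:**
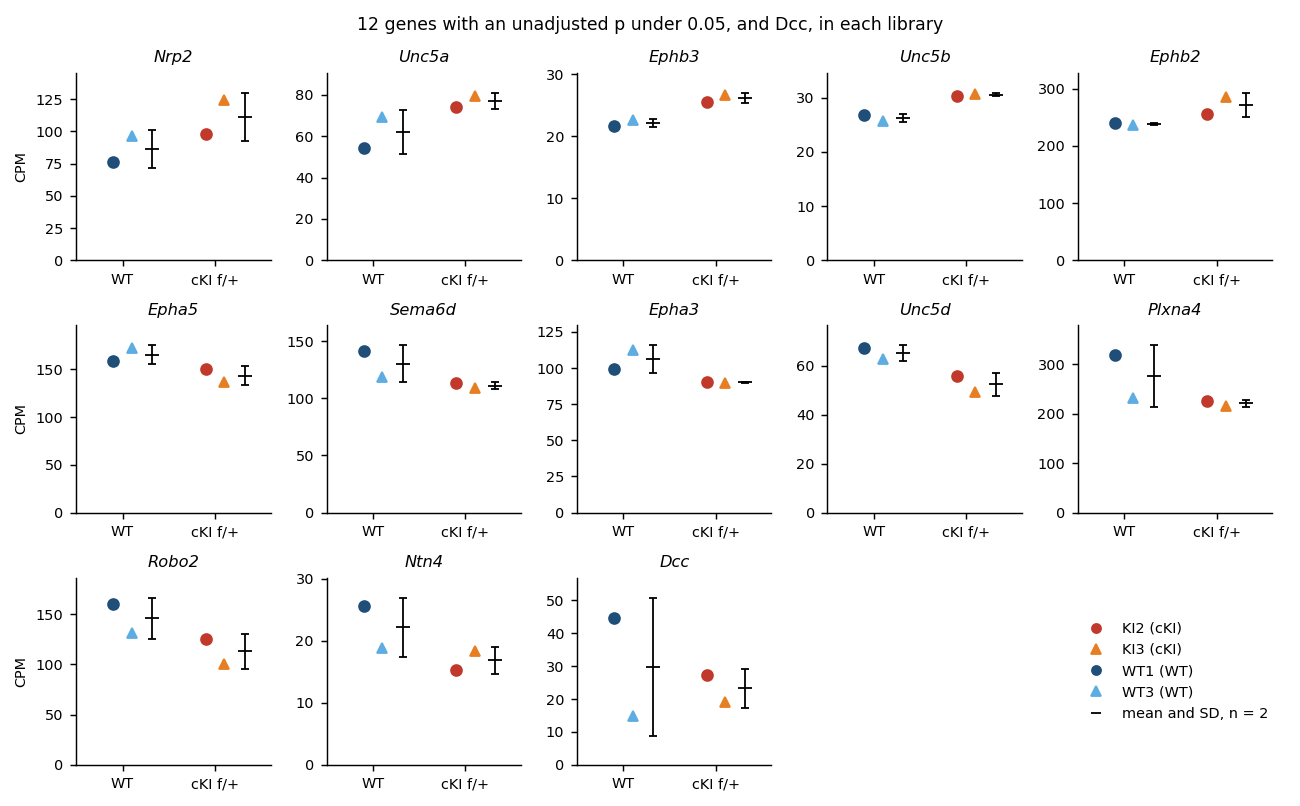
CPM in each library for the 12 members with an unadjusted p under 0.05 and for Dcc, with the mean and SD of each genotype (n = 2) as black bars, on axes that start at 0. The groups do not overlap in the 12 genes but the gaps are small, as in Nrp2 and Ntn4. In Dcc, WT1 (787 reads) and WT3 (260 reads) enclose both cKI f/+ libraries.

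The spread within a genotype was as large as the difference between genotypes for most members. In 53 of 64 members (82.8%), the larger of the log2 differences between libraries of 1 genotype exceeded the log2 difference between the genotype means, beside 74.7% of all genes tested. Across members, the difference of KI2 from KI3 was related to that of WT1 from WT3, with Pearson's r = 0.49 (n = 64 genes). This was 0.12 over all genes tested and 0.36 over the 86 tested genes that carry the table's axon guidance term and are not members. The points are genes measured in the same 4 libraries and are not independent replicates. Libraries are not paired between the genotypes, so the sign of r rests on the order in which they were taken. The other order in WT alone would reverse it. Nrp1, Sema3e, Robo2 and Dcc were higher in KI2 than KI3 and in WT1 than WT3, whereas Nrp2, Ntn1, Epha6 and Epha8 were lower in both. In CPM, the higher library over the lower, the ratios in cKI f/+ and WT were 1.27 and 1.27 for Nrp2 and 1.24 and 1.22 for Robo2.

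**Figure D4:**
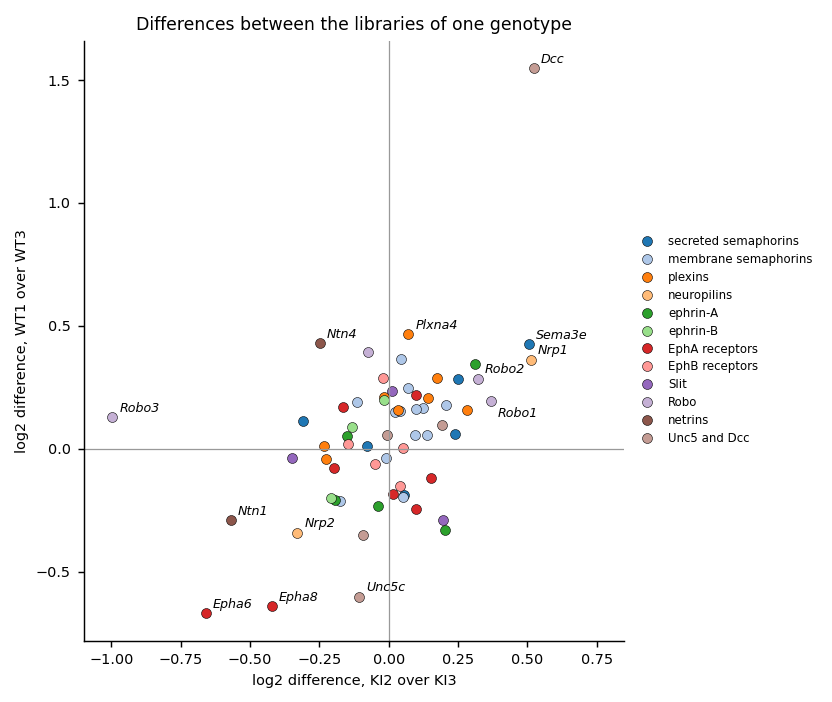
Each point is a tested member, coloured by family, placed by the log2 difference of KI2 over KI3 (horizontal) and WT1 over WT3 (vertical). Points in the lower left and upper right differ in the same direction in this order of libraries, among them Nrp2 and Robo2. Over 64 members r is 0.49, and its sign rests on that order because libraries are not paired between genotypes. Dcc is highest on the vertical axis and Robo3 lowest on the horizontal one.

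Differences between genotypes were related to the base composition and size of the genes. Over the 64 tested members, the log2 fold change was related to the GC content of the longest transcript with Pearson's r = 0.59 and Spearman's rho = 0.51, and to the log2 of the gene's span on the chromosome with r = -0.45 and rho = -0.44. Over all genes tested, r was 0.16 and -0.09 and rho 0.33 and -0.17. These are descriptions across genes of the same libraries. Of the 12 members with a GC content of at most 45%, 11 (91.7%) had a lower fitted value in cKI f/+, with a median log2 fold change of -0.23. Of all genes of that range, 71.0% had a lower fitted value and the median was -0.08. Among the 17 members with a span over 200 kb, 13 (76.5%) had a lower fitted value and the median was -0.22, beside 62.3% and -0.04 for all genes of that range.

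The 12 members with an unadjusted p under 0.05 were divided in the same way. The 5 higher genes spanned 18.6 to 188 kb with a GC content of 51.1% to 62.7%. The 7 lower genes spanned 106.5 to 578 kb with a GC content of 40.1% to 51.6%. In GRCm38 coordinates as the table gives them, Robo2 lies at chr16:73892306-74411825, Unc5d at chr8:28646717-29219636 and Plxna4 at chr6:32144268-32588192, all on the minus strand. Nrp2 lies at chr1:62703285-62818695 and Unc5a at chr13:54949411-55006018, both on the plus strand. With the trend of all genes on GC content removed, 7 members had an unadjusted p under 0.05 and 6 of the 12 were among them. These were Nrp2, Ntn4, Plxna4, Robo2, Sema6d and Unc5d. With the trend on span removed, 7 of the 12 kept such a p, namely Ephb2, Ephb3, Nrp2, Robo2, Unc5a, Unc5b and Unc5d. No member was called in either fit. After removal of the GC trend, the members' log2 fold change was still related to GC content, with r = 0.39 beside 0.59 before.

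**Figure D5:**
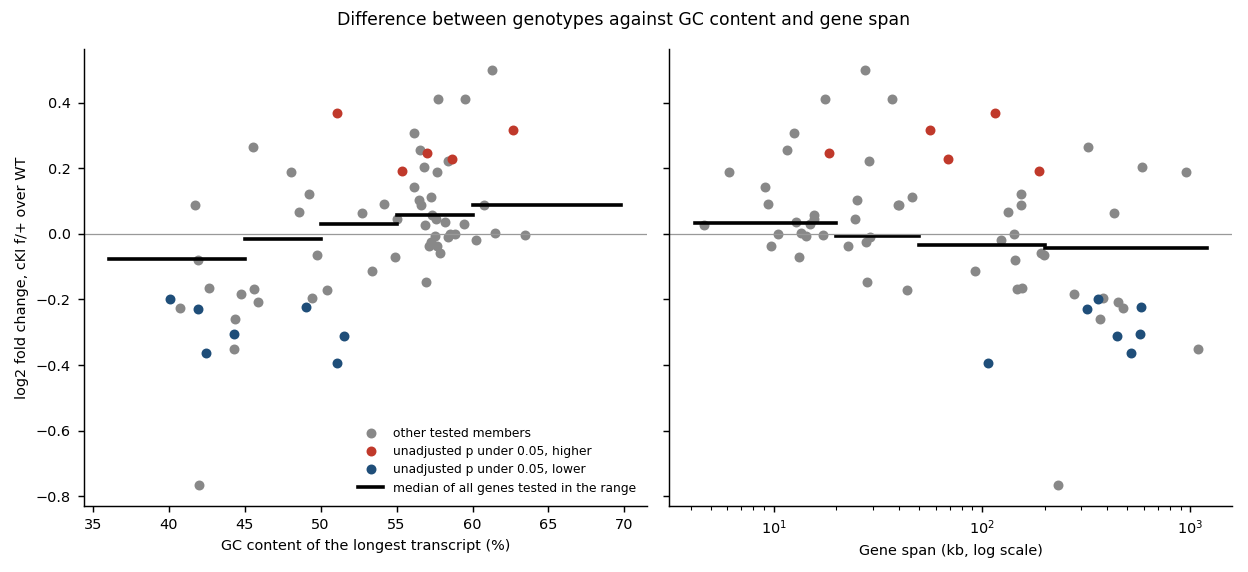
Fitted log2 fold change (cKI f/+ over WT) of the 64 tested members against GC content of the longest transcript (left, percent) and gene span (right, kb, log scale). Red and blue points are the 5 higher and 7 lower members with an unadjusted p under 0.05, and black lines are the medians of all genes tested in each range. Low values lie at low GC content and long span, beyond the medians of all genes.

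Members on chromosome X were examined because sex and genotype coincide in these libraries. Efnb1 is described above, and Plxna3, a plexin with Nrp2 as partner for Sema3f, was at 349.6 and 289 CPM in cKI f/+ and 328 and 293 CPM in WT. Its groups overlapped and the log2 fold change was 0.05 (SE 0.10). Plxnb3 was not tested, with 10 and 8 reads in cKI f/+ and 5 and 2 in WT, and its level was the third lowest of all members. Removing chromosomes X and Y from the fit left 12 members with an unadjusted p under 0.05. All of these lie on autosomes and stayed in the fit, so it cannot separate sex from genotype for them.

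Genes that carry or modify these signals inside and outside the cell were also without a call. A list of 79 partners and effectors of the 4 pathways was tested in full, 0 were called by edgeR (background 0.12%) or by DESeq2, and the median log2 fold change was -0.01. At an unadjusted p under 0.05 there were 2 higher and 2 lower genes, or 5.06%, close to the 4.60% of all genes tested. Draxin, a secreted protein that binds Dcc and netrin-1, was at 346 and 359 CPM in cKI f/+ and 304 and 311 CPM in WT, a log2 fold change of 0.20 (SE 0.07). Nfatc4, a calcium-regulated transcription factor, was at 86.1 and 88.8 CPM against 71.3 and 81.0 CPM, a log2 fold change of 0.21 (SE 0.09). Neither gene overlapped between genotypes. Flrt2, the Unc5d ligand, was at 56.2 and 53.6 CPM against 60.8 and 66.8 CPM (log2 fold change -0.21, SE 0.09), with each cKI f/+ value lower. Flrt2 and Unc5d have a GC content of 41.75% and 44.28%, and 71.0% of all genes tested at up to 45% had a lower fitted value. With the trend of all genes on GC content removed, the log2 fold change was -0.13 for Flrt2 and -0.26 for Unc5d. Lrrc4c, a netrin-G ligand, was at 20.4 and 22.5 CPM against 29.3 and 28.4 CPM, with a log2 fold change of -0.42 (SE 0.11, unadjusted p = 0.0034, adjusted p = 0.675 in edgeR's quasi-likelihood test).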

How the data were processed

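The authors deposited raw counts of reads per gene, without normalization, for 4 libraries. The submitters' processing notes name Bowtie2 2.2.3, TopHat2 2.0.12, HTSeq 0.6.0 and mm9. Yet 24485 of 26433 gene positions in the table equal those of GENCODE M21 on GRCm38, which supplied exon lengths and GC content. The strand setting of the counting is not given in the sources used here, and exons of 17 members overlap another gene. The labels describe triplicates, and 2 libraries per group were analysed here. Column names give the genotype, but not all of their numbers occur in the sample titles, so no column was tied to a single sample. The authors' columns of mean normalized count, fold change and p-value were not used.

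CPM is the count divided by the library total. edgeR 4.0.16 in R 4.3.3 (filterByExpr, TMM, quasi-likelihood test, Benjamini-Hochberg adjustment over 15786 genes, threshold 0.05) gave folds, standard errors and p-values, and was tested on simulated data. Within-genotype log2 differences used a pseudocount of 0.5. Alternatives were DESeq2 1.42.0, the likelihood ratio test, other normalizations and filters, fits with 1 library left out and a fit on autosomes. Removal of GC and span trends and another gene length were added after seeing the data.

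The members, gene lists and tests were chosen with earlier results of these data known. Genes named are members with an unadjusted p under 0.05, the highest and lowest per length in each family, the 5 largest folds each way, X-linked and untested members, partners with an unadjusted p under 0.05 and markers. Sema3a, Sema4g, Efnb2, Epha2, Epha7, Ephb4, Robo1 and Slit3 were chosen after their values were seen.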

Additional observations from a re-analysis of the deposited data

How the results depend on the processing

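No member was called under DESeq2, the likelihood ratio test, other normalizations, other filters or removal of chromosomes X and Y. In these fits 8 to 12 members had an unadjusted p under 0.05, beside 1.26% to 4.73% of all genes. With 1 library left out, 0 to 3 members were called and 1 to 15 had such a p. Without KI3 it was Ntn4 alone, without WT1 it was 7 members, and without WT3 Dcc, Plxna4 and Unc5a were called. Removing the trend on GC content or on gene span left 7 members each, and removing the GC trend moved the members' median log2 fold change to -0.055. The cause was not tested. Taking the longest transcript as the length changed the highest gene of 3 families. Which members had such a p changed with the library left out. Over these fits the log2 fold change ran from 0.11 to 0.25 for Ephb2, from 0.215 to 0.28 for Ephb3 and from 0.20 to 0.26 for Unc5b. It ran from -0.32 to -0.13 for Epha3, from -0.29 to -0.13 for Epha5 and from -0.42 to -0.22 for Unc5d. The log2 fold change ran from -0.93 to 0.65 for Dcc, from -0.22 to 0.83 for Robo3, from -0.037 to 0.090 for Efnb1 and from -0.11 to 0.18 for Plxna3. With the GC trend removed it was -0.032 for Efnb1 and -3.3e-05 for Plxna3. A left-out library leaves a genotype with 1 library, which is assumed to vary like the other group. No paired analysis was possible because the sample titles of the groups share no number and the column names share only 1. With 2 libraries per group, the 95% interval reached beyond 0.5 on the log2 scale for 22 of 64 members.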

Other observations

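Markers of other cell types that could carry axon guidance genes were also measured. Cajal-Retzius markers summed to 486 and 325 CPM in cKI f/+ and 359 and 333 CPM in WT. All 5 had a higher fitted value in cKI f/+ with a median log2 fold change of 0.23, and 4 did not overlap between genotypes (17.3% of all genes tested lay above). Intermediate progenitor markers summed to 1212 and 1211 CPM against 1201 and 1152 CPM. Endothelial markers summed to 105 and 116 CPM against 119 and 117 CPM, and pericyte markers to 59.4 and 57.9 CPM against 74.0 and 73.0 CPM. Blood markers were at 490 and 367 CPM against 492 and 522.5 CPM, and microglial markers at 25.9 and 29.0 CPM against 33.0 and 31.6 CPM. Of 11 ventral telencephalic markers, 9 had a lower fitted value in cKI f/+ and the median log2 fold change was -0.21. Dlx2 had a log2 fold change of -0.59 and Ebf1 of -0.60, whereas Nkx2-1 had 19 and 17 reads in cKI f/+ and 6 and 3 in WT.

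Of 145 genes in the table with the exact term axon guidance, 31 are members and 86 others were tested. In edgeR's quasi-likelihood test 8 of these 86 (9.30%, beside 4.60% of all genes tested) had an unadjusted p under 0.05, the lowest adjusted p was 0.802 and the median log2 fold change was 0.0058.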
